A study of Homo sapiens with 24 samples.

Results

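The respiratory chain genes are the protein-coding genes whose symbols begin with MT-, NDUF, UQCR, COX4, COX5, COX6, COX7, COX8 or ATP5. Their RNA was counted by sequencing in HT-144, a human melanoma line established from a metastasis. All 107 symbols that match the rule were found among the 58735 genes counted, and 97 reached 1 CPM (counts scaled to library size) in at least 1 group. Of these 97 members, 13 are encoded in mitochondrial DNA and 84 in the nucleus. The nuclear members comprised 6 core subunits, 29 accessory subunits and 8 assembly factors of complex I, 9 genes of complex III, 14 of complex IV and 18 of complex V. The rule used a minimum level and no test of a difference between groups. Because reaching the minimum in 1 group was enough, membership can still depend on the groups. This holds for NDUFA4L2, which reached it only in groups aimed at the gene SREBF1, as described below.

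There were 6 groups, each a single library summed over 4 sequencing lanes. The 3 controls were mock, which received no named oligonucleotide, a negative siRNA (siNegative) at 50 nM and a negative antisense oligonucleotide (ASO-Neg) at 5 nM. The others were aimed at SREBF1, the gene of a factor that drives transcription of lipid synthesis genes. They were a pooled siRNA (siSREBF1) at 50 nM and the antisense oligonucleotides ASO-SREBF1-S1 and ASO-SREBF1-S4, both at 5 nM. All cells were reverse transfected with Lipofectamine RNAiMAX and kept for 3 days in RPMI-1640 with 1% insulin-transferrin-selenium. Libraries came from polyadenylated RNA, were strand-specific and were read as pairs of 75-base reads. The study has 1 cell line and 1 library per group, and dose differs with chemistry, so effects of reagent, culture and library cannot be told apart within a group.

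Oxidative phosphorylation passes electrons from NADH and succinate through complexes I to IV to oxygen, and complex V (ATP synthase) uses the resulting proton gradient to make ATP. Complexes I, III, IV and V are built from subunits of both genomes, whereas complex II is encoded entirely in the nucleus. Mitochondrial DNA is transcribed as long precursors that are cut into single RNAs, mostly at the transfer RNAs between genes. MT-ND6 is the only one of its protein-coding genes read from the opposite strand. Nuclear subunit genes are transcribed singly, and the factors NRF1 and GABPA are known regulators of many of them.

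The compact layout of the mitochondrial genome bears on its counts, because read pairs that fall on 2 genes are not assigned to either. The following are the 2 reading-frame overlaps of more than 1 base on GRCh38 (plus strand), with the shared bases in capitals and 15 flanking bases on each side. MT-ATP8 and MT-ATP6 share 46 bases within chrM:8512-8587, and MT-ND4L and MT-ND4 share 7 bases within chrM:10745-10781. In both, the capitals begin with the start codon of the downstream gene. MT-ATP6 and MT-CO3 share only the base at chrM:9207.
MT-ATP8/MT-ATP6: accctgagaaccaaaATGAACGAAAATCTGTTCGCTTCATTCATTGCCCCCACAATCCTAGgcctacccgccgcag
MT-ND4L/MT-ND4: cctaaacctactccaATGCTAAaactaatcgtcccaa

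Nuclear members stand under separate promoters, and 3 are shown because they hold these letters and their genes are described below. The windows are the 150 bases before the RefSeq start on GRCh38.p14, each read on the plus strand, with motif matches in capitals. COX5B, a subunit of complex IV, is at chr2:97645912-97646061 and holds an NRF1-like match (GCGCATGC, on the opposite strand) and a GABPA-like match (CCGGAAGT). Its last 5 capitals begin a match that runs past the start. UQCRH, the hinge protein of complex III, is at chr1:46303548-46303697 and has the GABPA-like letters on the opposite strand. COX8A, a complex IV subunit, is at chr11:63974470-63974619 and has the same letters, also on the opposite strand.
COX5B: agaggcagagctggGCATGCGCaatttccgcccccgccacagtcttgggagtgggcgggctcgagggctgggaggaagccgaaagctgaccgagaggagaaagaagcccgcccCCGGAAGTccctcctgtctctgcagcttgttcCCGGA
UQCRH: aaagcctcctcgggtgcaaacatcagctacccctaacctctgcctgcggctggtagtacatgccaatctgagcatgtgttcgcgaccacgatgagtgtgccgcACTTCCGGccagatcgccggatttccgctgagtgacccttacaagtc
COX8A: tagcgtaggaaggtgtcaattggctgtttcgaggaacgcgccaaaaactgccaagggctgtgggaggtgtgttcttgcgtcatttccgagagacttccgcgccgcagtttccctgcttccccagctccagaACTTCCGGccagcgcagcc

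Both 8-letter motifs were searched on both strands of windows of 300 bases, from 250 before to 50 after the start. A RefSeq window was matched for 69 of the 84 nuclear members. GCGCATGC was present in 14 of them (20.3%), against 3.68% of the 27305 genes with a window. CCGGAAGT was present in 11 (15.9%), against 4.95% of genes. The match is to letters only and says nothing of binding in these cells.

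Libraries held 12916478 (mock) to 47900277 (ASO-SREBF1-S1) gene counts, and levels are CPM scaled by TMM, edgeR's factor for library composition. Lanes of a library differed little beyond counting noise (chi-square over degrees of freedom 1.0 to 1.07) and so were summed. The targeted gene SREBF1 stood at 231.5, 249.3 and 217.1 TMM-scaled CPM in mock, siNegative and ASO-Neg. It stood at 54.9, 76.9 and 70.3 in siSREBF1, ASO-SREBF1-S1 and ASO-SREBF1-S4, below every control (log2 ratio -1.78, SE 0.12, adjusted p = 0.00164, edgeR quasi-likelihood test). All 9 melanocytic markers were detected and summed to 4337 to 6495 TMM-scaled CPM, lowest in ASO-SREBF1-S4 and highest in mock. The 6 immune markers summed to 0.705 to 3.01, with CD3E at 0 in 3 libraries, whereas the 7 keratinocyte, 5 endothelial and 8 fibroblast markers summed to 23.3 to 29.6, 38.2 to 58.1 and 674.4 to 978.3.

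Levels per length mostly separated the genomes. Over the 6 libraries, mitochondrially encoded members had a median of 3115 TMM-scaled CPM per kb of canonical transcript, and nuclear members 61.3. MT-CO2, a catalytic subunit of complex IV, was highest at 9238 per kb, followed by MT-ND4 of complex I at 7720. MT-ND6 was lowest of the 13 at 281.9 per kb, within the nuclear range. Above it were the nuclear genes ATP5F1B (669.7 per kb, catalytic beta subunit of ATP synthase), ATP5MC2 (418.6, a c-ring subunit) and UQCRH (407.8, complex III). So were COX7C (379.0), COX4I1 (299.0) and COX6B1 (293.2), all of complex IV. MT-ATP8 (1530 per kb) shares 22.2% of its length with MT-ATP6, where pairs may go uncounted. In bulk RNA, fewer cells and less RNA per cell cannot be told apart.

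Among nuclear groups, the complex I assembly factors included NDUFAF3 at 51.8 per kb and NDUFAF2 at 38.1. The accessory subunits NDUFB9 and NDUFS5 reached 168.2 and 156.8 per kb, and the core subunit NDUFV1 99.7. For 4 nuclear members at least 50% of the canonical exons overlap another gene on the same strand (NDUFA11, NDUFA13, NDUFB8 and ATP5PO), and their median was 9.06 per kb, against 70.2 for the 72 members with under 10% overlap. Their low values are uncertain, because pairs in shared exons are not assigned. Members between these bounds have the same limit, with levels from NDUFA9 (11.7% shared, 0.978 per kb) to COX8A (35.4%, 94.5). UQCR11 (18.1%, 11.8) and COX6A1 (32.6%, 41.6) are among them. The 10 candidates under 1 CPM included the tissue isoforms COX4I2, COX6A2 and COX7A1, with no count in any library. They also included NDUFV2, a core subunit of complex I, at only 0.08 to 0.83 CPM, so it is not described further.

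**Figure D1:**
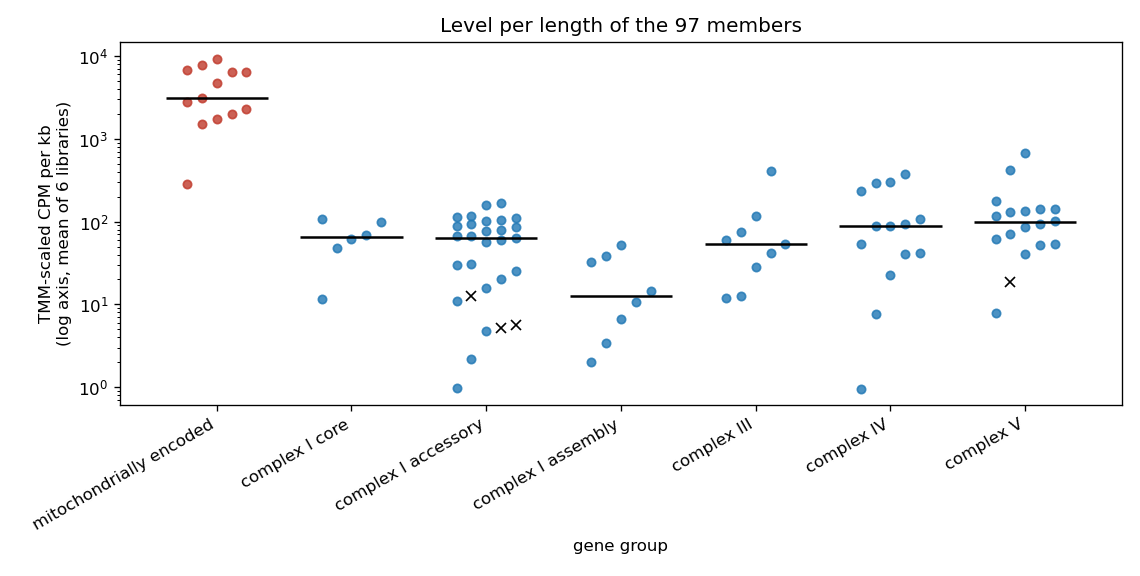
Mean level over the 6 libraries in TMM-scaled CPM per kb (log axis) of each of the 97 members by gene group; horizontal bars are group medians and crosses mark the 4 nuclear members with at least 50% shared exon. The mitochondrially encoded points lie between 281.9 and 9238, and the nuclear points between 0.963 and 669.7.

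In the comparison of the 3 SREBF1-targeting libraries with the 3 controls, no respiratory chain gene passed the threshold. The question was whether SREBF1 depletion by any of the reagents came with a shared change of the chain. With edgeR's quasi-likelihood test, 0 of 97 members had an adjusted p under 0.05 and 0 had an unadjusted p under 0.05, against 0.0595% and 10.2% of the 15123 genes tested. The DESeq2 Wald test also called 0 members, and 163 of 14953 genes. The members' log2 ratios ran from -0.42 to 0.55, with a median of -0.06 (all genes: 0.006). Both ends are uncertain. The highest was NDUFA4L2, which reached the 1 CPM minimum in the targeting libraries alone, so its ratio is no evidence of a change. The lowest was NDUFA13, a gene of a few CPM that shares 83.9% of its canonical exons with another gene. Each side pools different reagents, so the spread behind these tests is that between reagents and cultures together.

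The 13 mitochondrially encoded genes all had log2 ratios below 0 in this fit, with a median of -0.11, but in none did the sides separate. Scaled by library size alone, 2 of them (MT-ND3 and MT-ND4L) came out above 0. The median was -0.23 without ASO-SREBF1-S4, -0.033 without ASO-SREBF1-S1 and -0.066 without siSREBF1. The median of the 84 nuclear members was -0.055, and 59 lay below 0. It was -0.01 with library size alone and 0.004 without ASO-SREBF1-S4, so its sign rests on that library. Sides that did not overlap were found for 3 members with targeting lower and 2 with targeting higher, against 8.52% and 8.87% of all genes tested. They included NDUFA10 and COX8A (lower) and NDUFA5 and NDUFA8 (higher). NDUFA8 was named after its values were seen.

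As a sum, the mitochondrially encoded genes lay on both sides of the controls in the targeting libraries. They held 5.39%, 5.38% and 5.29% of all gene counts in mock, siNegative and ASO-Neg. The share was lower in siSREBF1 (4.73%) and ASO-SREBF1-S1 (4.66%) and higher in ASO-SREBF1-S4 (5.93%), each outside the range of the controls. The 95% Wilson intervals, which cover counting error only, were no wider than 5.37% to 5.40% (mock). The controls therefore lie close together, while the targeting libraries fall on both sides of them.

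The nuclear members held 0.82%, 0.746% and 0.785% of counts in mock, siNegative and ASO-Neg. In siSREBF1 they held 0.762%, within the control range, against 0.834% with ASO-SREBF1-S1 and 0.724% with ASO-SREBF1-S4. Of the counts on all 97 members, the mitochondrially encoded share was 86.8%, 87.8% and 87.1% in the controls mock, siNegative and ASO-Neg. The libraries siSREBF1, ASO-SREBF1-S1 and ASO-SREBF1-S4 had 86.1%, 84.8% and 89.1%. This measure needs no scaling between libraries, and ASO-SREBF1-S1 and ASO-SREBF1-S4 lie at its extremes.

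**Figure D2:**
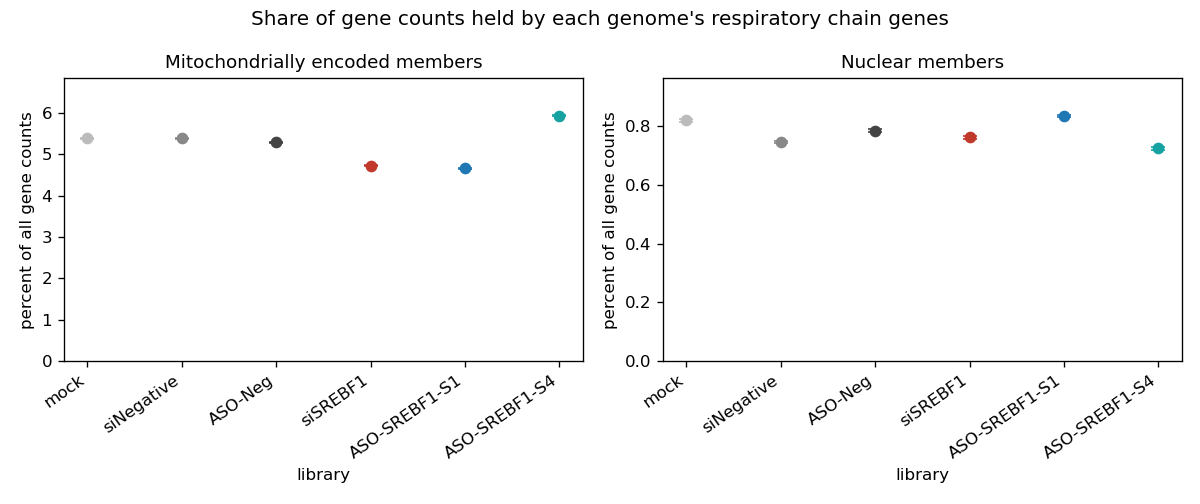
Percent of all gene counts on the 13 mitochondrially encoded members (left) and the 84 nuclear members (right) in each library; points are single libraries and bars 95% Wilson intervals, which are about the size of the points. On the left siSREBF1 (4.73%) and ASO-SREBF1-S1 (4.66%) lie below the 3 controls and ASO-SREBF1-S4 (5.93%) above them; on the right ASO-SREBF1-S1 is highest (0.834%) and ASO-SREBF1-S4 lowest (0.724%).

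Against its matched control, the ratio of mitochondrially encoded to nuclear counts was lower in siSREBF1 (log2 change -0.22 over siNegative) and with ASO-SREBF1-S1 (-0.27 over ASO-Neg). With ASO-SREBF1-S4 it was higher (0.28 over the same ASO-Neg). The controls differed from mock by 0.14 (siNegative) and 0.036 (ASO-Neg). These are ratios of 1 library to 1, so no replicate spread stands behind them. The ASO ratios share their denominator.

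Gene by gene, the mitochondrial transcripts mostly followed that pattern. They make up the numerator of that ratio, so they are not separate support for it. In siSREBF1 over siNegative all 13 were lower (median -0.20, range -0.43 to -0.042), and in ASO-SREBF1-S1 over ASO-Neg 12 of 13 were (median -0.21), the exception being MT-ND6 at 0.07. For ASO-SREBF1-S4 over ASO-Neg all 13 were higher (median 0.093), with MT-ND1 at 0.003 (95% counting interval -0.019 to 0.025). Over all genes at 10 CPM or more, 5073 of 9862 were lower in siSREBF1 over siNegative and 4653 of 9757 in ASO-SREBF1-S1 over ASO-Neg. In ASO-SREBF1-S4 over ASO-Neg, 4465 of 9851 were higher. Of the 13 genes, 7 had their lowest level in siSREBF1 and 6 in ASO-SREBF1-S1, whereas 11 had their highest in ASO-SREBF1-S4. None lay on the same side of its matched control in all 3.

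Counted by size (a log2 ratio of 0.32 or more either way, and at least 10 CPM in the numerator or denominator), 4 mitochondrially encoded genes were lower in siSREBF1 (MT-ND6, MT-ATP6, MT-ATP8 and MT-CO3) and 2 in ASO-SREBF1-S1 (MT-ND3 and MT-ND4). In ASO-SREBF1-S4, 2 were higher (MT-ND6 and MT-ND3). Over all members, 0 were higher and 8 lower in siSREBF1 (background 5.02% and 6.94% of genes). There were 0 higher and 3 lower in ASO-SREBF1-S1 (4.46% and 5.78%), and 3 higher and 2 lower in ASO-SREBF1-S4 (7.13% and 7.16%). Between controls, siNegative over mock gave 0 higher and 4 lower (2.41% and 1.57%), and ASO-Neg over mock 0 higher and 4 lower (1.49% and 4.25%). The targeting libraries thus gave 8, 3 and 5 members past this size, and the control pairs 4 and 4. These counts depend on the size and on the lanes: at a fold of 1.5 they were 1, 1 and 0, and 0 and 0 for the control pairs. Leaving out a lane gave 5 to 10 for ASO-SREBF1-S4 and 6 to 8 for siNegative over mock.

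**Figure D3:**
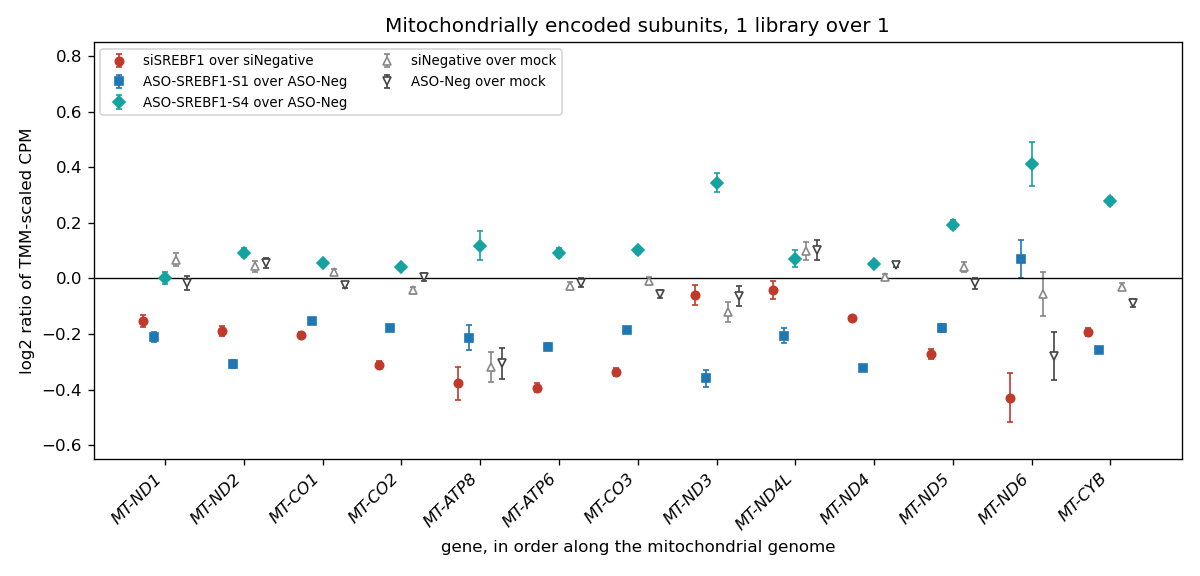
Log2 ratio of TMM-scaled CPM of 1 library over 1 for the 13 mitochondrially encoded genes in genome order, with 95% counting intervals; filled symbols are SREBF1-targeting over matched control and open symbols control over mock. Filled circles (siSREBF1) are below 0 for all 13 genes, squares (ASO-SREBF1-S1) for all but MT-ND6, and diamonds (ASO-SREBF1-S4) are above 0 for all 13.

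Within complex V, MT-ATP6 encodes the proton-channel subunit a and MT-ATP8 a small subunit beside it, from the overlapping frames shown above. MT-ATP6 stood at 4678, 4593 and 4627 TMM-scaled CPM in mock, siNegative and ASO-Neg, and at 3496, 3901 and 4937 in siSREBF1, ASO-SREBF1-S1 and ASO-SREBF1-S4. Both siSREBF1 and ASO-SREBF1-S1 are below the controls, which span a narrow range, and ASO-SREBF1-S4 is above them. The log2 ratio of targeting to control was -0.17 (SE 0.125, adjusted p = 0.676, edgeR). MT-ATP8 stood at 395.6, 317.5 and 320.0 in the controls and 244.3, 276.0 and 347.4 in the targeting libraries in the same order. Here mock stood above both other controls (siNegative over mock -0.32, ASO-Neg over mock -0.31), so the control spread is wider than for MT-ATP6.

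The neighbouring MT-CO3, a core subunit of complex IV, stood at 5363, 5325 and 5158 TMM-scaled CPM in mock, siNegative and ASO-Neg. It stood at 4217, 4540 and 5533 in siSREBF1, ASO-SREBF1-S1 and ASO-SREBF1-S4. These 3 adjacent genes were among the 4 mitochondrially encoded genes past that size in siSREBF1 (MT-ATP6 -0.39, MT-ATP8 -0.38, MT-CO3 -0.34). Of the other complex IV genes, MT-CO1 stood at 10820, 11000 and 10630 in the controls and 9555, 9570 and 11060 in the targeting libraries. MT-CO2 stood at 6681, 6484 and 6704 in the controls and 5226, 5922 and 6898 in the targeting libraries. In both, siSREBF1 and ASO-SREBF1-S1 are under all controls and ASO-SREBF1-S4 is over them.

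Of the 7 mitochondrially encoded complex I subunits, MT-ND4 was the most abundant. It stood at 10920, 10960 and 11300 TMM-scaled CPM in mock, siNegative and ASO-Neg, and at 9916, 9032 and 11710 in siSREBF1, ASO-SREBF1-S1 and ASO-SREBF1-S4. MT-ND3 varied more, at 821.7, 756.3 and 786.5 in the controls against 726.1, 612.8 and 999.1. Its ratios over ASO-Neg were the most opposed of the 13 (ASO-SREBF1-S1 -0.36, interval -0.39 to -0.33; ASO-SREBF1-S4 0.34, interval 0.31 to 0.38).

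MT-ND1 stood at 1987, 2084 and 1965 TMM-scaled CPM in the controls and at 1873, 1698 and 1969 in the targeting libraries. MT-ND2 stood at 2943, 3034 and 3057 against 2662, 2470 and 3262, and MT-ND5 at 3236, 3331 and 3195 against 2760, 2823 and 3655. For MT-ND2 and MT-ND5, siSREBF1 and ASO-SREBF1-S1 lay below all controls and ASO-SREBF1-S4 above them. For MT-ND1, ASO-SREBF1-S4 lay among the controls. MT-ND4L, whose frame overlaps MT-ND4, stood at 889.0, 952.0 and 954.6 against 924.3, 827.4 and 1003, so that siSREBF1 lay within the control range.

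MT-ND6, from the opposite strand, departed from its neighbours. It stood at 162.6, 156.4 and 134.0 TMM-scaled CPM in mock, siNegative and ASO-Neg, and at 116.2, 140.6 and 178.2 in siSREBF1, ASO-SREBF1-S1 and ASO-SREBF1-S4. ASO-SREBF1-S1 therefore lay within the control range for this gene, unlike for the other 12. The control range was itself wide (ASO-Neg over mock -0.28). MT-CYB, the mitochondrially encoded subunit of complex III, stood at 5613, 5501 and 5283 in the controls and 4816, 4420 and 6409 in the targeting libraries.

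Other mitochondrial RNA had this order of libraries only in part. The large ribosomal RNA MT-RNR2 stood at 3747, 3863 and 4012 TMM-scaled CPM in mock, siNegative and ASO-Neg and at 2788, 3596 and 3915 in siSREBF1, ASO-SREBF1-S1 and ASO-SREBF1-S4. It was thus low in siSREBF1 and ASO-SREBF1-S1 but within the control range in ASO-SREBF1-S4. The small ribosomal RNA MT-RNR1 stood at 394.7, 383.4 and 485.0 in the controls and 338.0, 383.5 and 406.5 in the targeting libraries, so that only siSREBF1 lay outside the control range. The 22 mitochondrial transfer RNAs summed to 6.42, 7.79 and 4.82 in the controls and 4.99, 5.49 and 7.80 in the targeting libraries, where siSREBF1 and ASO-SREBF1-S1 lay among the controls. The 404 nuclear pseudogenes named after mitochondrial coding genes, to which such reads can also align, summed to 652.3, 676.9 and 654.9 in the controls and 517.3, 564.0 and 702.8 in the targeting libraries. Replication-dependent histone genes, whose RNA normally lacks a poly(A) tail, summed to 52.0 to 56.6 in the controls and to 75.6, 59.7 and 71.7 in the targeting libraries. The part of poly(A) selection or of read assignment in these ratios was not tested.

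Nuclear members showed small ratios and another order of libraries. Their median log2 ratio was 0.015 in siSREBF1 over siNegative (75 genes at 10 CPM or more, 46 above 0) and 0.057 in ASO-SREBF1-S1 over ASO-Neg (52 of 76 above 0). For ASO-SREBF1-S4 over ASO-Neg it was -0.17, with 66 of 75 below 0, while the median over all genes was -0.022. Between controls, siNegative over mock gave -0.13 with 68 of 75 below 0, and ASO-Neg over mock -0.052 with 53 of 75 below 0. The shift in ASO-SREBF1-S4 is therefore close in size to that between the siNegative and mock libraries. These directions held under every scaling tried (ASO-SREBF1-S4 -0.18 to -0.10; ASO-SREBF1-S1 0.042 to 0.10).

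Length moved with this shift. Of the nuclear members, 51 of 84 have canonical transcripts under 1000 bases. With ASO-SREBF1-S4 over ASO-Neg, the 474 other genes of that length had a median of -0.1 and the 9279 longer genes -0.018. In siNegative over mock the medians were -0.045 and 0.002. The part of transcript length in the members' shift was not tested.

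**Figure D4:**
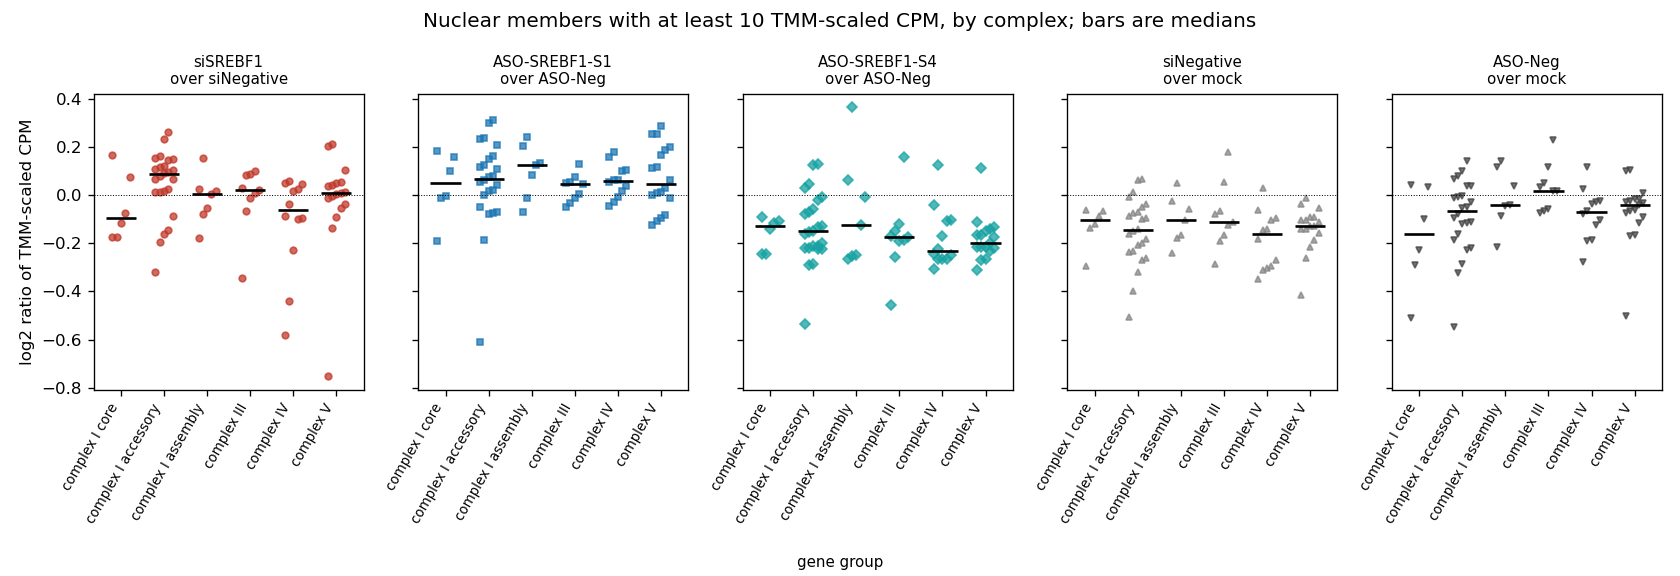
Log2 ratio of TMM-scaled CPM of 1 library over 1 for nuclear members with at least 10 TMM-scaled CPM in 1 of the 2 libraries, by gene group, 1 panel per ratio; points are genes and bars group medians. In the ASO-SREBF1-S4 panel all 6 medians are below 0 (-0.12 to -0.23), as in siNegative over mock (-0.10 to -0.16), and the lowest point of each panel is ATP5MK in siSREBF1 (-0.75), NDUFA12 in ASO-SREBF1-S1 (-0.61), NDUFS4 in ASO-SREBF1-S4 (-0.54), NDUFA1 in siNegative over mock (-0.51) and NDUFB7 in ASO-Neg over mock (-0.55).

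The 6 nuclear core subunits of complex I, which carry the flavin and iron-sulfur clusters, were all lower in ASO-SREBF1-S4 than in ASO-Neg (median -0.13), none past the size of 0.32. NDUFS7, an iron-sulfur subunit, stood at 47.4, 38.7 and 33.3 TMM-scaled CPM in mock, siNegative and ASO-Neg and at 34.3, 37.2 and 28.1 in siSREBF1, ASO-SREBF1-S1 and ASO-SREBF1-S4, with mock far above the other controls and the sides overlapping. NDUFS3 stood at 65.3, 59.3 and 66.8 against 62.5, 58.6 and 56.4, also overlapping.

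Accessory subunits surround that core. NDUFA5 stood at 57.4, 54.6 and 60.5 TMM-scaled CPM in mock, siNegative and ASO-Neg, and at 61.0, 65.2 and 66.2 in siSREBF1, ASO-SREBF1-S1 and ASO-SREBF1-S4. All targeting libraries were above all controls (log2 ratio 0.16, SE 0.071, adjusted p = 0.488, edgeR), although siSREBF1 exceeded ASO-Neg by less than 1 CPM of TMM-scaled level. NDUFA10 stood at 81.6, 82.2 and 78.5 against 73.5, 78.4 and 67.4, the sides again touching. NDUFB7 stood at 65.9, 54.7 and 45.02 against 43.8, 50.0 and 36.9, where mock and ASO-Neg differed (-0.55) by more than any targeting library from its matched control.

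Single libraries stood apart for other accessory subunits. NDUFA12 stood at 49.1, 43.3 and 48.7 TMM-scaled CPM in the controls, 46.4 in siSREBF1, 31.8 with ASO-SREBF1-S1 and 43.4 with ASO-SREBF1-S4. Only ASO-SREBF1-S1 was low (-0.61 over ASO-Neg, 95% counting interval -0.73 to -0.49). NDUFS4, a late-assembling subunit mutated in Leigh syndrome, stood at 38.9, 37.9 and 42.9 in the controls, 38.6 in siSREBF1, 37.7 with ASO-SREBF1-S1 and 29.6 with ASO-SREBF1-S4. Here only ASO-SREBF1-S4 was low (-0.54, interval -0.70 to -0.37). NDUFB9 was highest in ASO-SREBF1-S1 at 139.3, against 104.4 to 119.9 in the controls and 115.3 and 106.3 in siSREBF1 and ASO-SREBF1-S4.

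Among assembly factors, NDUFAF8 stood at 19.1, 16.2 and 16.5 TMM-scaled CPM in the controls and at 18.0, 19.5 and 21.2 in siSREBF1, ASO-SREBF1-S1 and ASO-SREBF1-S4. It was above its matched control in all 3 targeting libraries, though the sides overlapped at mock (log2 ratio 0.19, SE 0.11, adjusted p = 0.591, edgeR). NDUFAF3 stood at 51.9, 45.9 and 48.8 against 46.1, 46.5 and 40.9, and NDUFAF7 at 21.3, 22.1 and 23.5 against 22.4, 25.7 and 24.5. Of all 84 nuclear members, 7 were lower and 8 higher than the matched control in all 3 targeting libraries, against 17.8% and 19.4% of all genes tested. The ASO ratios share ASO-Neg.

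Complex III passes electrons from ubiquinol to cytochrome c. Its core protein gene UQCRC1 stood at 200.4, 184.0 and 190.3 TMM-scaled CPM in mock, siNegative and ASO-Neg and at 186.6, 197.6 and 171.4 in siSREBF1, ASO-SREBF1-S1 and ASO-SREBF1-S4. UQCRH stood at 227.5, 210.6 and 232.6 against 214.9, 233.4 and 194.8. In both, ASO-SREBF1-S4 was the lowest library and ASO-SREBF1-S1 lay at or near the top of the controls. UQCRHL, a near copy of UQCRH whose reads may be split between them, stood at 12.6, 12.0 and 12.8 against 9.46, 13.2 and 9.28. UQCR11 went the other way, at 13.2, 15.02 and 15.5 against 16.1, 14.97 and 17.3, with the sides overlapping.

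Complex IV reduces oxygen to water. Its regulatory subunit gene COX4I1 stood at 245.2, 216.3 and 239.0 TMM-scaled CPM in the controls and at 220.0, 249.7 and 198.9 in siSREBF1, ASO-SREBF1-S1 and ASO-SREBF1-S4. COX5B, whose promoter is shown above, stood at 89.5, 72.0 and 78.6 against 67.7, 78.1 and 65.4, and COX7C at 269.4, 223.7 and 250.7 against 232.9, 243.1 and 210.6. ASO-SREBF1-S4 was lowest in each. Of the isoform pairs, COX6A1 and COX7A2 were measured at 17.8 to 26.6 and 103.2 to 113.7, while COX4I2, COX6A2 and COX7A1 had no count. NDUFA4, now counted as a complex IV subunit, stood at 98.7 to 117.7, and its paralog NDUFA4L2, a known hypoxia-responsive gene, at 0.548 to 1.14, near the minimum.

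ATP5MK, COX7A2L and COX8A were low in siSREBF1. The ATP5MK ratio was the widest of the 5 single-library ratios among members at 10 CPM or more, while those of NDUFA12, NDUFS4 and NDUFB7 in other libraries, given above, were wider than that of COX8A. ATP5MK, a small membrane subunit of ATP synthase, also known as DAPIT (chr10:103389041-103396492, minus strand), stood at 62.8, 58.4 and 61.0 TMM-scaled CPM in mock, siNegative and ASO-Neg, at 69.5 and 55.2 in ASO-SREBF1-S1 and ASO-SREBF1-S4, and at 34.7 in siSREBF1. The other 5 libraries ran from 55.2 to 69.5, and siSREBF1 stood below them. Over siNegative its log2 ratio was -0.75 (95% counting interval -0.91 to -0.60).

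COX7A2L, a factor of supercomplex assembly (chr2:42333546-42425088, minus strand), stood at 96.2, 98.3 and 104.4 TMM-scaled CPM in the controls, 105.5 and 86.9 in ASO-SREBF1-S1 and ASO-SREBF1-S4, and 65.7 in siSREBF1 (-0.58 over siNegative, interval -0.70 to -0.47). COX8A, a small subunit of complex IV (chr11:63974620-63976543, plus strand), stood at 53.4, 48.4 and 49.0 in the controls, 48.1 and 45.5 in the ASO libraries and 35.6 in siSREBF1 (-0.44 over siNegative, interval -0.60 to -0.28). COX8A shares 35.4% of its canonical exons with another gene on its strand. Each of these genes was lowest in siSREBF1, with the ASO libraries much nearer the controls.

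**Figure D5:**
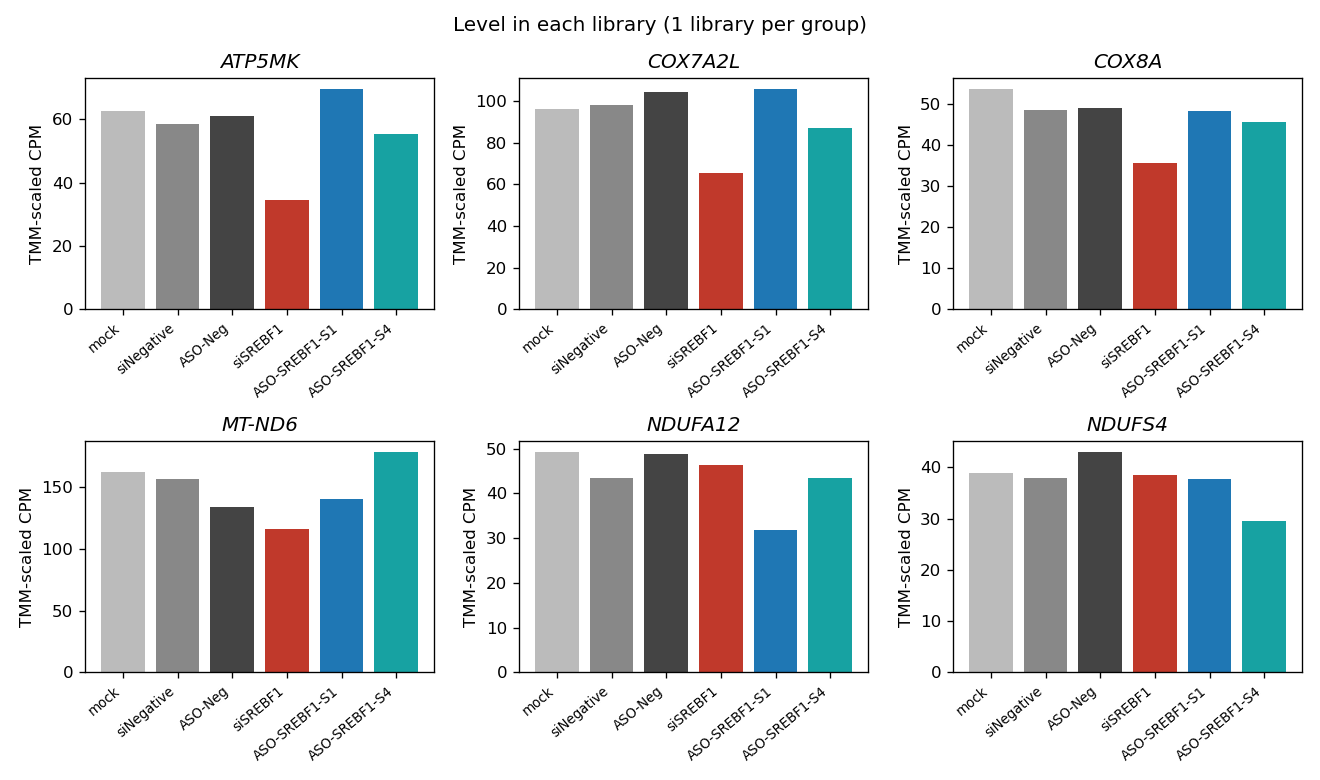
TMM-scaled CPM in each of the 6 libraries (1 library per group, axes from 0) for 6 members with wide single-library ratios. siSREBF1 is lowest for ATP5MK (34.7), COX7A2L (65.7), COX8A (35.6) and MT-ND6 (116.2, with ASO-SREBF1-S4 highest at 178.2), ASO-SREBF1-S1 for NDUFA12 (31.8) and ASO-SREBF1-S4 for NDUFS4 (29.6).

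The difference between the siRNA and the ASO pair was tested in a fit with 3 classes (control, siSREBF1, ASO pair), in which the lone siSREBF1 library is assumed to vary like the others. No member passed an adjusted p of 0.05 in edgeR's test, against 0.147% of 16297 genes. At an unadjusted p under 0.05 there were 5 members, all lower in siSREBF1, against 8.71% of genes. They were ATP5MK (log2 -0.86, SE 0.15, adjusted p = 0.0908), COX7A2L (-0.56, SE 0.13, adjusted p = 0.225), COX8A (-0.40, SE 0.11, adjusted p = 0.324), MT-ND6 (-0.46, SE 0.17, adjusted p = 0.460) and COX6A1 (-0.39, SE 0.17), by edgeR. Over all 14 alternatives, 1 of them with no filter on low counts, edgeR's adjusted p for ATP5MK, COX7A2L, COX8A and MT-ND6 fell on both sides of 0.05. For COX6A1 it stayed above 0.05. These adjusted p-values therefore depend on the settings of the fit and on the libraries in it. In each alternative siSREBF1 is still 1 library with no replicate of it. The siRNA and the ASOs also differ in dose, so chemistry and dose cannot be told apart.

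The ASO pair against the controls, in the same fit, also called no member (edgeR), against 0.043% of genes. At an unadjusted p under 0.05 there were 3 (NDUFA5 higher, NDUFA12 and NDUFA13 lower), against 11.2% of genes. NDUFA13 was named after its values were seen, and its shared exons make its level (1.88 to 3.60 TMM-scaled CPM) uncertain. The 2 ASOs differed in direction. Of the mitochondrially encoded members, 12 of 13 lay below ASO-Neg in ASO-SREBF1-S1 and above it in ASO-SREBF1-S4. Of the nuclear members at any level, 45 of 84 lay above ASO-Neg in ASO-SREBF1-S1 and below it in ASO-SREBF1-S4. Over all genes at 10 CPM or more, 5104 of 9757 lay above ASO-Neg in ASO-SREBF1-S1, and 5386 of 9851 below it in ASO-SREBF1-S4. The share of all genes with opposite directions was not counted.

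That difference was tested in a fit with 4 classes (control, siSREBF1 and each ASO alone), added after the results were seen. Each ASO is then 1 library, assumed to vary like the controls, so the test compares these libraries and has no replicate of either ASO. edgeR called 10 of 97 members at an adjusted p under 0.05, against 6.14% of 16297 genes. Lower in ASO-SREBF1-S1 than in ASO-SREBF1-S4 were MT-CYB, MT-ND2, MT-ND3, MT-ND4, MT-ND5 and NDUFA12. Of these MT-ND3 differed most (log2 -0.70, SE 0.099, adjusted p = 0.000978, edgeR).

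Higher in ASO-SREBF1-S1 were NDUFB9, COX6B1 of complex IV (named after its values were seen) and the c-subunit genes ATP5MC1 and ATP5MC3. ATP5MC1 stood at 104.1 TMM-scaled CPM with ASO-SREBF1-S1 but at 75.2 with ASO-SREBF1-S4, outside the controls (80.8 to 89.2) on either side (log2 0.47, SE 0.105, adjusted p = 0.017, edgeR). At an unadjusted p under 0.05, against 21.3% of genes, 12 of 13 mitochondrially encoded members were lower in ASO-SREBF1-S1, and of the nuclear members 35 were higher and 2 lower. The number called at the adjusted threshold depended on which controls gave the spread, and was higher without mock or without ASO-Neg. The share of all genes called in those refits is not given here. The rise is therefore not read as a result about the members.

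Calls appeared when 1 of the ASOs was set aside, so that the class holds a single library assumed to vary like the controls. Without ASO-SREBF1-S4, edgeR called 6 members in ASO against control, MT-CYB, MT-ND2, MT-ND3, MT-ND4 and NDUFA12 lower and NDUFB9 higher, among 5.37% of genes. Without ASO-SREBF1-S1, it called 4, MT-ND3 higher and NDUFB7, NDUFS4 and ATP5PD lower, among 5.94% of genes. MT-ND3 was called in both, in opposite directions (-0.36 and 0.34). For siSREBF1 against the remaining ASO, where each class is 1 library assumed to vary like the controls, 4 members were called without ASO-SREBF1-S4 (5.51% of genes) and 7 without ASO-SREBF1-S1 (2.46%), ATP5MK in both (-1.01 and -0.68).

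ATP synthase makes the ATP. ATP5F1B stood at 1257, 1150 and 1229 TMM-scaled CPM in mock, siNegative and ASO-Neg and at 1045, 1330 and 1058 in siSREBF1, ASO-SREBF1-S1 and ASO-SREBF1-S4. ATP5F1A, the other catalytic-head subunit, stood at 575.6, 535.0 and 579.5 against 535.6, 538.2 and 492.6, and ATP5PD of the peripheral stalk at 117.3, 108.4 and 111.9 against 107.4, 112.4 and 90.2. The 3 genes for the identical mature c subunit were ATP5MC2 at 227.1 to 278.5, ATP5MC3 at 159.0 to 213.0 and ATP5MC1 at 75.2 to 104.1, each lowest in ASO-SREBF1-S4. The inhibitor ATP5IF1, which blocks ATP hydrolysis by the enzyme, stood at 30.7, 29.5 and 27.3 in the controls and 34.1, 33.4 and 29.6 in the targeting libraries. It was above its matched control in all 3 (0.20, 0.29 and 0.11), with the sides overlapping.

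Genes around the chain were read from other lists, none of which had a member with an adjusted p under 0.05 (edgeR, targeting against control). Complex II and its assembly factors had a median of -0.026 over 8 genes, complex IV assembly 0.027 over 25, complex I and V assembly 0.03 over 12, cytochrome c and its partners -0.054 over 3, chaperones and proteases -0.015 over 12, and the citric acid cycle -0.045 over 14, beside 0.006 over all genes. At an unadjusted p under 0.05, against 10.2% of all genes tested, the first 3 and the chaperones had no gene. Cytochrome c had 1, HCCS (haem lyase, higher), and the citric acid cycle had 1, lower. The 21 genes of mitochondrial RNA processing and stability had a median of 0.086 and no gene at that level. Of them 6 had all targeting libraries above all controls and 1 had all below, against 8.87% and 8.52% of all genes tested. In the citric acid cycle 0 of 14 genes had all targeting libraries above all controls and 5 had all below, against the same 8.87% and 8.52%. Among the 5 was IDH2, the mitochondrial NADP-dependent isocitrate dehydrogenase (-0.16).

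The 15 genes of mitochondrial DNA transcription and replication had a median of -0.002 with 2 higher and 3 lower at an unadjusted p under 0.05, against 10.2% of all genes in either direction. The sides separated for 4 upward and 3 downward, against 8.87% and 8.52%. TFB1M, a methyltransferase of mitochondrial ribosomal RNA, stood at 30.6, 30.3 and 28.3 TMM-scaled CPM in mock, siNegative and ASO-Neg and at 22.8, 23.3 and 25.9 in siSREBF1, ASO-SREBF1-S1 and ASO-SREBF1-S4 (log2 -0.31, SE 0.085, adjusted p = 0.271, edgeR). POLG, the mitochondrial DNA polymerase, stood at 127.0, 122.4 and 119.4 against 99.5, 108.4 and 106.9 (-0.23, SE 0.066, adjusted p = 0.295, edgeR). In both, every targeting library lay below every control, ASO-SREBF1-S4 included. The other 3, named after their values were seen, were TOP1MT (lower, -0.28) and the termination factors MTERF1 (higher, 0.25) and MTERF3 (higher, 0.27).

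The transcription factor TFAM stood at 67.3, 61.8 and 69.1 TMM-scaled CPM in the controls and 70.0, 69.7 and 60.2 in the targeting libraries. Of 10 nuclear regulators (median -0.12), 2 were lower at an unadjusted p under 0.05, against 10.2% of all genes in either direction. PPARGC1A, a coactivator of mitochondrial genes, stood at 49.2, 39.3 and 44.2 against 31.7, 40.6 and 34.8 (-0.30, SE 0.11, adjusted p = 0.419, edgeR), the sides overlapping. TFEB, a lysosomal and mitochondrial regulator, stood at 2.51, 2.48 and 1.82 against 1.49, 1.35 and 1.72 (-0.60, SE 0.23, adjusted p = 0.405, edgeR), with the sides apart. NRF1 and GABPA stood at 11.8 to 14.1 and 33.2 to 38.9 over the 6 libraries.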

How the data were processed

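The deposited values were whole-number counts of read pairs per gene, 1 file per lane, which the authors made with STAR 2.6.1a on GRCh38, per the submitters' processing notes; the annotation is not given in the sources used here. The reverse-strand column was used. The 4 lanes of each library were summed after lane pairs were checked for differences (chi-square over degrees of freedom 1.0 to 1.07 within a library, 1.92 to 8.80 between). Pairs assigned to no gene (18.2% to 19.4%) stayed out. Identifiers were matched to GENCODE 44 (58207 of 58735, 99.93% of counts). edgeR 4.0.16 in R 4.3.3 used TMM, filterByExpr and the 2-sided quasi-likelihood test, with Benjamini-Hochberg adjustment over all genes at 0.05, and DESeq2 1.42.0 was an alternative. Single-library ratios used a prior count of 2 and have no p-value; intervals are 95% and cover counting error only. Replicates of a side are libraries that received different reagents, and nothing states that they came from separate experiments. For edgeR, targeting against control and the 4-class fit were checked on simulated data. The 3-class fit and DESeq2 were not. The named nuclear genes were those with the smallest p or highest level per length in each group, the extremes of each single-library ratio, and paralogs. Members and lists were chosen with earlier results of these data known. A few results are not reported here.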

Additional observations from a re-analysis of the deposited data

Results flagged for a closer look

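The effects of ASO-SREBF1-S1 and ASO-SREBF1-S4, each over the same ASO-Neg library, had opposite signs in 3 summaries of the chain. The log2 change of the ratio of mitochondrially encoded to nuclear counts was -0.268 with ASO-SREBF1-S1 but 0.284 with ASO-SREBF1-S4. The median log2 ratio of the 13 mitochondrially encoded members was -0.211 and 0.093, and that of the nuclear members 0.057 and -0.172. The difference of these summaries was not tested. In a fit added after the results were seen, each ASO library was assumed to vary like the controls. There the median log2 ratio of ASO-SREBF1-S1 to ASO-SREBF1-S4 was -0.336 for mitochondrially encoded members, 0.223 for nuclear members and 0.002 over all genes. These medians come from the same libraries and are not separate support. Both libraries had low SREBF1 (76.9 and 70.3 TMM-scaled CPM), and ASO-SREBF1-S1 was sequenced more deeply (47900277 against 15901894 gene counts).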

How the results depend on the processing

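No paired analysis was possible because replicate numbers are lanes of a library, which were summed. The count of members called in targeting against control was 0 under every alternative run, with DESeq2, chemistry as a term, each scaling and each library or lane left out. Leaving out libraries, the count called for the ASO pair against control ran from 0 to 6 (without ASO-SREBF1-S4) and for siSREBF1 against the ASO pair from 0 to 7 (without ASO-SREBF1-S1). That last count was 2 with no filter on low counts and 1 without lane 3 (ATP5MK). Without siSREBF1 the siRNA contrast could not be computed. The count called between the ASOs (10), a test added after the results were seen, ran from 10 to 29 (without ASO-Neg) with another library left out, and was 22 without mock.

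The median of the mitochondrially encoded members in targeting against control (-0.106) was -0.06 with library size alone, and ran from -0.232 (without ASO-SREBF1-S4) to -0.033 (without ASO-SREBF1-S1). That of the nuclear members (-0.055) ran from -0.108 (without ASO-SREBF1-S1) to 0.004 (without ASO-SREBF1-S4). The mitochondrially encoded medians with library size alone were -0.163 in siSREBF1, -0.166 with ASO-SREBF1-S1 and 0.161 with ASO-SREBF1-S4 over the matched control. Single genes changed sign in targeting against control: MT-ND3 (0.03) and MT-ND4L (0.025) with library size alone. With libraries left out, the log2 ratio ran from -0.244 to 0.039 for MT-CYB, -0.237 to 0.131 for MT-ND3, -0.091 to 0.049 for MT-ND4L, -0.23 to 0.078 for MT-ND6 and -0.126 to 0.004 for UQCRH. The cause was not tested.

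Members past the size in single-library ratios numbered 1 in siSREBF1, 1 with ASO-SREBF1-S1 and 0 with ASO-SREBF1-S4 and in both control ratios at a fold of 1.5, and 0 in all at a fold of 2. Leaving out a lane gave 3 to 5 for ASO-SREBF1-S1, 5 to 10 for ASO-SREBF1-S4 and 6 to 8 for siNegative over mock, where unstranded counts gave 7. Unstranded counting set the mitochondrially encoded share of members' counts at 87.458% in mock, 88.427% in siNegative, 87.603% in ASO-Neg, 86.723% in siSREBF1, 85.52% with ASO-SREBF1-S1 and 89.627% with ASO-SREBF1-S4, with the libraries in the same order. Depth limits members of a few CPM: 3 counts are worth 0.0626 to 0.232 CPM.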
